A study of Mus musculus with 12 samples.

Results

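The genes that carry glucose into C2C12 cells, break it down to lactate and store it as glycogen are described here across 4 groups of cultured cells. A list of 48 genes was taken by function: the glucose transporters Slc2a1, Slc2a3 and Slc2a4, the enzymes of glycolysis from hexokinase to pyruvate kinase, the genes that decide whether pyruvate becomes lactate, the lactate carriers, and the enzymes and scaffolds that build and degrade glycogen. Of these 48 genes, 33 passed the filter on low counts and were tested, out of 13247 tested genes and 38481 genes with a listed transcript. The other 15 are accounted for below.

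C2C12 is a mouse myoblast line, grown here in high-glucose medium with 10% serum, in which it proliferates. Cells received an siRNA against Renilla luciferase (Luc), which has no target in mouse cells, or 1 siRNA against Crebl2, a bZIP protein related to CREB, for 3 days. They were then given 20 nM rapamycin, which inhibits mTOR complex 1, or ethanol, its solvent, for 12 hours. Total RNA was sequenced as stranded libraries, 3 in each of the 4 groups: Luc siRNA in ethanol ("control"), Luc siRNA in rapamycin ("rapamycin"), Crebl2 siRNA in ethanol ("Crebl2 siRNA") and Crebl2 siRNA in rapamycin ("combined"). All 4 groups had been transfected with an siRNA, and a single siRNA sequence stood for the loss of Crebl2. Whether replicate libraries stem from separate cultures is not in the labels, so the spread behind each p-value may be technical.

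As background, glucose enters muscle cells through facilitative carriers: GLUT1 (Slc2a1) serves basal uptake and GLUT4 (Slc2a4) insulin-stimulated uptake in differentiated fibres. Hexokinase and phosphofructokinase commit glucose to glycolysis, pyruvate kinase ends it, and pyruvate is then reduced to lactate and exported or oxidised in mitochondria, a step restrained by pyruvate dehydrogenase kinases. Glucose 6-phosphate can instead be turned by phosphoglucomutase towards glycogen, the store that phosphorylase draws on during contraction. In many proliferating cells mTOR complex 1 promotes the transcription of glucose transporter and glycolytic genes, in part through the hypoxia-inducible factor HIF1α.

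Values below are CPM, the read-count rate of edgeR relative to the scaled library total. The deposited counts hold almost no reads that overlap more than 1 listed transcript, so for each gene the share of its exonic bases that belong to a single listed transcript, its countable share, limits what could be seen. It was 100% for 16 of the 33 tested genes and under 50% for 13. Among these 13, Pfkm, the muscle phosphofructokinase, was tested with 7.73% of its bases and 5 to 14 counts per library. Not measured, with a countable share under 10% and 0 to 6 counts in any library, were Eno3, Ldha, Phka1, Ppp1r3b and Gsk3a. The muscle enolase Eno3 and the lactate dehydrogenase subunit Ldha therefore have no value here. Below the count filter were Pfkfb3, Aldoc, Gapdh, Gyg, Gbe1, Pygm, Pygl, Phkg2, Ppp1r3d and Gaa, with at most 15 counts in any library, in Pygm. Gapdh had 14.9% of its bases countable and 0 to 4 counts, too few for a gene that every cell uses at a high level, and is treated as not measured too. The liver phosphorylase Pygl and the phosphatase scaffold Ppp1r3d had no count in any library, with 26.0% and 100% of their bases countable. A count of 0 allows up to 3 counts, which is 0.0713 to 0.0912 CPM, counting error only. Near-identical copies add a second uncertainty, because the handling of reads with several alignments is not given in the sources used here. In Pgk1, 53.9% of all 50-base words of the transcripts also occurred in another gene, with 36.2% in Pgam1, 26.0% in Eno1, 25.8% in Pkm and 21% in Ldhb.

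Library totals ran from 33404087 to 42891015 counts, and replicates varied by 6.85% (edgeR's common biological coefficient of variation). Crebl2 itself measured 23.8 to 26.2 CPM in control, 36.3 to 40.0 in rapamycin, 4.87 to 7.41 with the Crebl2 siRNA and 8.97 to 10.7 in the combined group. The myoblast markers were present, with a summed level over all 8 of 5061 to 5401, 3728 to 4012, 4781 to 5403 and 4345 to 4513 CPM in the same order. The summed level of 21 differentiated muscle markers was highest in control: 826 to 1003 CPM, against 311 to 364 in rapamycin, 277 to 320.3 with the Crebl2 siRNA and 211 to 233 in the combined group. Of the 11 that could be tested, 11 fell with rapamycin under the Luc siRNA and 8 under the Crebl2 siRNA, against 21.6% and 25.6% of all genes. With the Crebl2 siRNA 9 fell in ethanol and 8 in rapamycin, against 17.0% and 16.8% of all genes. In rapamycin 1 marker, Actn3, rose with that siRNA (log2 1.02). Myh2 and Myh4 were at 0 throughout with under 2% of their bases countable. Summed adipocyte, macrophage, endothelial, epithelial and liver markers each stayed at or under 2.97 CPM. The 4 neuronal markers summed to 36.0 to 138 CPM, almost all of it from Tubb3 (35.0 to 137 CPM). Rbfox3 and Snap25 were at 0, with 23.4% and 59.9% of their bases countable. How far the share of differentiating cells entered the results below was not tested, and in bulk RNA fewer cells of a kind and less RNA per cell cannot be told apart.

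Rapamycin lowered the main glucose transporter and the measured enzymes of many glycolytic steps under both siRNAs. With the Luc siRNA, 19 of the 33 tested genes fell and 6 rose at an adjusted p under 0.05, by the quasi-likelihood test of edgeR with Benjamini-Hochberg adjustment over all genes. This compares with 21.6% falling and 19.5% rising of all 13247 genes, and 41.1% called in either direction against 75.8% of the pathway genes. The list was chosen with earlier results of these data known, and the background of all genes was not matched for level. The excess over that background is therefore a description. Without rapamycin replicate 1 or 2, or without a count filter, 3 rose instead of 6. With the Crebl2 siRNA, 16 fell and 4 rose, against 25.6% and 19.7% of all genes (45.3% in either direction). The median log2 fold change of the 33 genes was −0.29 in both backgrounds, where all genes had medians of 0.02 and −0.01. The 16 that fell with the Crebl2 siRNA all fell with the Luc siRNA as well, and these 2 comparisons share no library. They were Slc2a1, Slc2a4, Hk2, Pfkl, Aldoa, Tpi1, Pgk1, Pgam1, Eno1, Pkm, Pdk1, Slc16a1, Pgm1, Pgm2, Gys1 and Gsk3b. Hk1, Pfkp and Pgam2 were called lower with the Luc siRNA alone, and none of the 3 differed between the backgrounds in the interaction test. Ldhb, Phkb, Stbd1 and Epm2a rose in both. How many of all genes were called alike in both comparisons was not counted, so this overlap cannot be called particular to the list.

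With the Crebl2 siRNA, in ethanol 8 of the 33 genes rose and 8 fell, against 21.4% and 17.0% of all genes (38.4% in either direction), and in rapamycin 7 rose and 5 fell, against 16.3% and 16.8% (33.1%). Counts of this size lie near the background, with 48.5% and 36.4% of the 33 genes called, so what follows concerns which genes moved. Slc2a1, Hk2, Pgk1, Eno1 and Pgm2 rose in both media, 62.5% of the 8 that rose in ethanol and 71.4% of the 7 that rose in rapamycin. Ldhb, Pdk1, Slc16a1, Pygb and Phkb fell in both, which was each of the 5 that fell in rapamycin. These 2 comparisons share no library either, and the overlap over all genes was not counted here. Hk2, the largest riser in both, and Pdk1, the largest faller in rapamycin, changed 1.86-fold and 1.93-fold there.

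**Figure D1:**
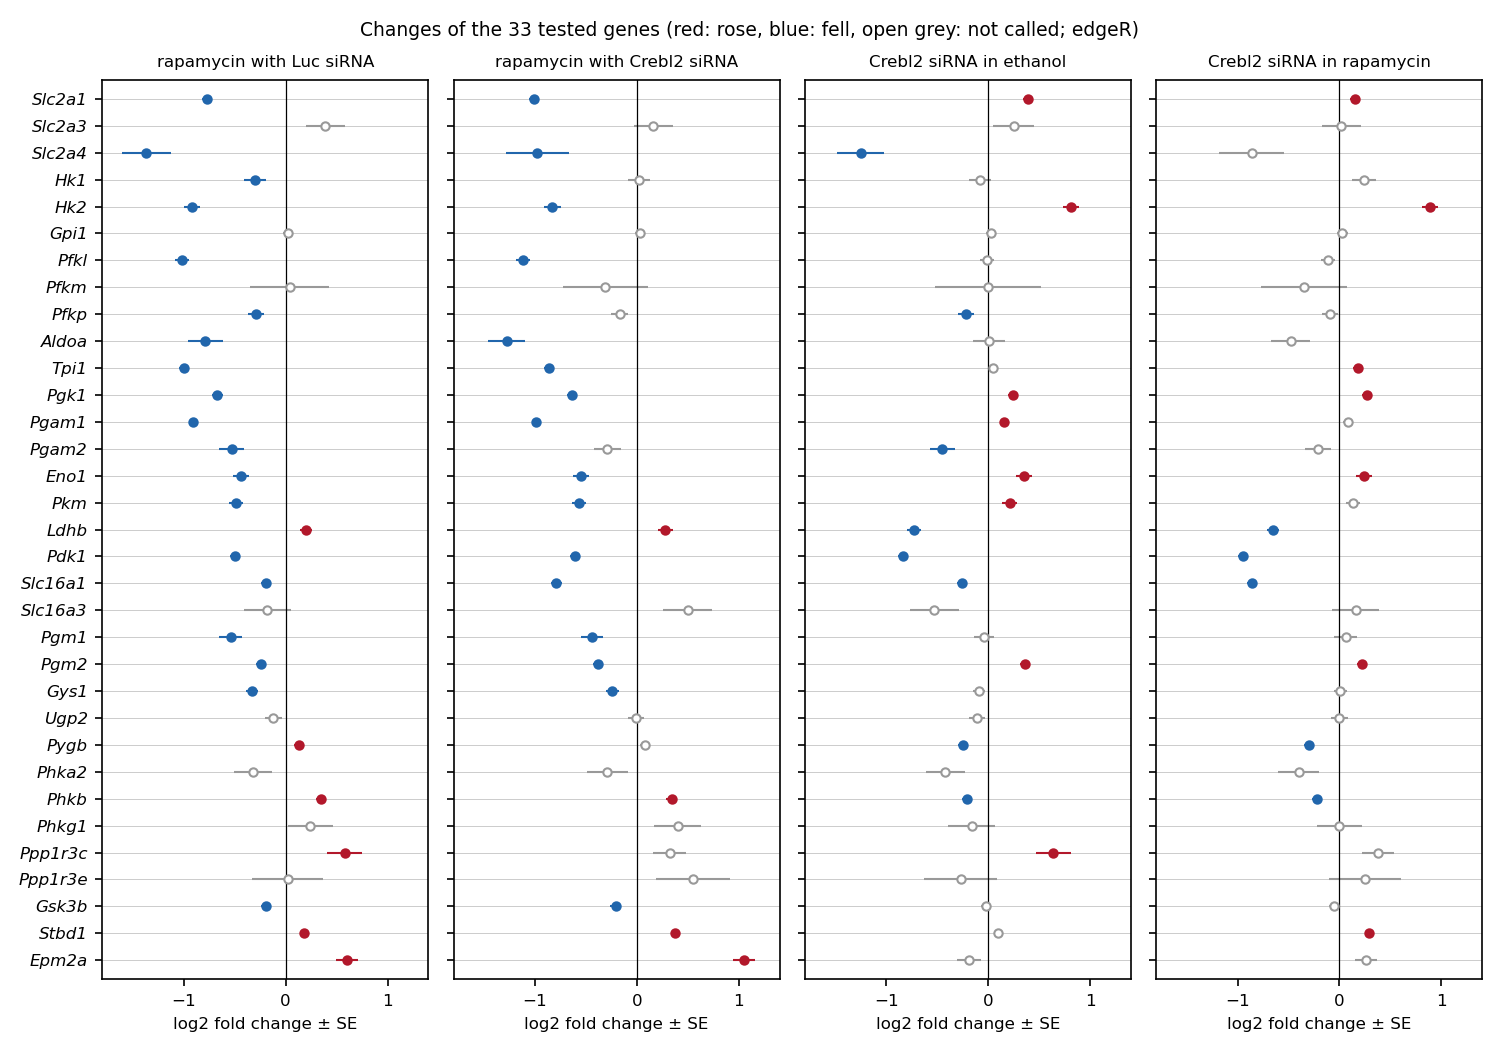
Log2 fold changes (x axis) of the 33 tested genes (y axis, ordered from uptake to glycogen) in 4 comparisons, with bars of 1 standard error from the edgeR fit. Filled red points rose, filled blue points fell and open grey points were not called; the rapamycin panels hold 19 and 16 blue points, and the Crebl2 siRNA panels 8 and 5.

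The interaction takes the response to rapamycin under the Crebl2 siRNA and subtracts the response under the Luc siRNA. It was called for 1 of the 33 genes, which was negative, against 1.2% of all genes (0.611% positive and 0.589% negative). That gene was the lactate carrier Slc16a1, described below. No gene of the list was called with a positive interaction by edgeR, where 2 had an unadjusted p under 0.05, and DESeq2 called 1, Stbd1.

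Among the glucose transporters, Slc2a1 held 226, 213 and 227 CPM in control, 124, 133 and 133 in rapamycin, 294, 281 and 296 with the Crebl2 siRNA, and 136, 155 and 142 in the combined group. The 4 groups did not overlap in any of the comparisons made, and every rapamycin library lay below every ethanol library. Rapamycin lowered Slc2a1 1.71-fold (log2 −0.77, SE 0.05, adjusted p = 1.2e-08) with the Luc siRNA and 2.01-fold (log2 −1.01, SE 0.05, adjusted p = 4.8e-10) with the Crebl2 siRNA. The Crebl2 siRNA raised it 1.31-fold in ethanol (log2 0.39, SE 0.05, adjusted p = 3.1e-05). In rapamycin the rise was 0.15 (SE 0.05, adjusted p = 0.04), and it was lost without rapamycin replicate 1 (adjusted p = 0.078) or combined replicate 2 (adjusted p = 0.096).

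Slc2a4, the insulin-responsive carrier of muscle and fat, was rare in these myoblasts: 0.836, 0.761 and 0.852 CPM in control, 0.36, 0.227 and 0.359 in rapamycin, 0.331, 0.39 and 0.312 with the Crebl2 siRNA, and 0.159, 0.203 and 0.152 in the combined group, or 5 to 34 counts per library. Both treatments lowered it and the combined libraries were the lowest. It fell 2.58-fold with rapamycin (log2 −1.37, SE 0.24, adjusted p = 0.00024) and 2.37-fold under the Crebl2 siRNA (log2 −1.25, SE 0.23, adjusted p = 0.00058), 2 comparisons that share the control libraries. With the Crebl2 siRNA rapamycin lowered it by 0.98 on the log2 scale (SE 0.31, adjusted p = 0.03), a call lost without Crebl2 siRNA replicate 2 (adjusted p = 0.083) or combined replicate 1 (0.098) or 3 (0.099), with DESeq2 (0.11) or without a count filter (0.077). In ethanol Slc2a4 thus moved in the direction opposite to Slc2a1 with the Crebl2 siRNA. In rapamycin the siRNA changed Slc2a4 by −0.86 on the log2 scale (SE 0.32, adjusted p = 0.087), which was not called. Slc2a4 was highest in control and lowest in the combined group, as was the summed level of the differentiated muscle markers. The neuronal-type carrier Slc2a3 was low, at 1.26 to 2.47 CPM over all libraries, and was not called in any comparison (log2 0.02 to 0.39).

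Per countable kilobase, the level of Slc2a1 in control was 68.2 CPM and that of Slc2a3 0.382. The median ratio of Slc2a1 to Slc2a3 on that scale was 168 in control, 91.7 in rapamycin, 181 with the Crebl2 siRNA and 76.7 in the combined group. Both rapamycin groups lay below both ethanol groups in this ratio, with 61.1 to 92.6 and 74.5 to 120 against 159.7 to 218 and 178 to 237.

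Hexokinase phosphorylates glucose and so traps it in the cell. Hk2 (chr6:82725025-82774454, minus strand, GRCm38), the inducible form of muscle and many tumours, measured 28.9, 35.7 and 32.9 CPM in control and 16.8, 17.7 and 16.9 in rapamycin. With the Crebl2 siRNA it measured 61.8, 52.4 and 56.1 CPM in ethanol and 32.6, 33.5 and 29.5 in rapamycin. The 3 combined libraries lay inside the range of the control libraries, and the Crebl2 siRNA libraries stood above every other. The Crebl2 siRNA raised Hk2 1.75-fold in ethanol (log2 0.81, SE 0.08, adjusted p = 1.3e-06) and 1.86-fold in rapamycin (log2 0.89, SE 0.08, adjusted p = 9.4e-07). Rapamycin lowered it by similar amounts, 1.89-fold with the Luc siRNA (adjusted p = 2.8e-07) and 1.78-fold in Crebl2 siRNA cells (adjusted p = 3.7e-07). The interaction of Hk2 was 0.09 (SE 0.11, adjusted p = 0.79). Hk1, the housekeeping form, with 24.9% of its bases countable, was not called with the siRNA (log2 −0.08 in ethanol, 0.24 in rapamycin) and fell by 0.3 with rapamycin (adjusted p = 0.049), a call lost without any single control replicate, rapamycin replicate 1 or 3, or Crebl2 siRNA replicate 1 or 3 (adjusted p = 0.05 to 0.13), or with DESeq2 (0.051).

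The second step showed no such response. Gpi1, which converts glucose 6-phosphate to fructose 6-phosphate, was abundant and flat: its group means were 596 ± 5.57, 606 ± 40.0, 609 ± 24.0 and 621 ± 23.4 CPM (SD, n = 3) in control, rapamycin, Crebl2 siRNA and combined libraries. The 4 pairwise log2 fold changes lay between 0.02 and 0.03 with standard errors of 0.05, and the groups overlapped in all 4.

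Phosphofructokinase, the main control point of glycolysis, has liver (Pfkl), platelet (Pfkp) and muscle (Pfkm) subunits. Pfkl measured 365, 345 and 357 CPM in control and 364, 325 and 368 with the Crebl2 siRNA, against 166, 191 and 168 in rapamycin and 153, 176 and 156 in the combined group. It fell with rapamycin whichever siRNA was present (2.03-fold, adjusted p = 8.4e-09, and 2.18-fold, adjusted p = 2.3e-09), and the Crebl2 siRNA left the libraries overlapping in both media (log2 −0.01 and −0.11, each SE 0.07). Pfkp, at 7.74 to 10.1 CPM as group means, fell by 0.29 with rapamycin in control cells (SE 0.08, adjusted p = 0.0078). Its fall of 0.22 with the Crebl2 siRNA (adjusted p = 0.044) was lost without any single control replicate or Crebl2 siRNA replicate 1 or 2 (adjusted p = 0.075 to 0.16). It was also lost with RLE scaling, DESeq2, no count filter or the compared groups alone (adjusted p = 0.051, 0.086, 0.11 and 0.058). With the Crebl2 siRNA rapamycin changed it by −0.17, not called (adjusted p = 0.11), or by −0.23 without Crebl2 siRNA replicate 2 (adjusted p = 0.045). Pfkm was too thinly counted to show a change of ordinary size, with standard errors of 0.39 to 0.52.

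Each of Aldoa, Tpi1, Pgk1, Pgam1, Eno1 and Pkm, enzymes of the steps from aldolase to pyruvate kinase, was called lower with rapamycin in both backgrounds, while Gapdh, which acts between them, was not measured. Aldolase splits the 6-carbon sugar, and the counts for Aldoa came from the 23.4% of its bases that are countable: 2.61, 2.9 and 2.56 CPM in control, 1.28, 1.99 and 1.38 in rapamycin, 2.88, 2.4 and 2.83 with the Crebl2 siRNA, and 1.2, 1.25 and 0.882 in the combined group. These bases held 29 to 122 counts per library, and in control 6.3 CPM per kilobase, against 508 for Tpi1 and 742 for Pgam1. The changes of Aldoa are those of these bases and may not hold for its RNA as a whole. It fell 1.73-fold with the Luc siRNA (adjusted p = 0.0017) and 2.43-fold in the Crebl2 siRNA background (adjusted p = 3.1e-05), and the Crebl2 siRNA changed it by 0.01 in ethanol and −0.48 in rapamycin, neither called (adjusted p = 0.97 and 0.069). Without rapamycin replicate 1 the second became −0.57 and was called (adjusted p = 0.049).

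Triose phosphate isomerase, Tpi1, measured 580.2, 576 and 551 CPM in control and 277, 301 and 276 in rapamycin, a 2.0-fold fall (log2 −1.0, SE 0.05, adjusted p = 1.2e-09). Under the Crebl2 siRNA it measured 569, 589 and 608 CPM in ethanol and 304, 348 and 318 in rapamycin, a 1.82-fold fall (adjusted p = 4e-09). The ethanol groups overlapped, while the combined libraries all lay just above the rapamycin libraries, and the siRNA was called there alone (log2 0.18, SE 0.05, adjusted p = 0.016). For Pgk1, which makes the first ATP of the payoff phase, the libraries were at 465, 446 and 462 CPM in control, 292, 285 and 285 in rapamycin, 537, 534 and 552 with the Crebl2 siRNA and 329, 374 and 337 in the combined group. All 4 groups were apart. Pgk1 fell 1.59-fold and 1.56-fold with rapamycin (log2 −0.67 and −0.64, each SE 0.05, adjusted p = 2.3e-08 and 2.9e-08) and rose 1.18-fold and 1.21-fold with the Crebl2 siRNA (log2 0.24 and 0.27, each SE 0.05, adjusted p = 0.00089 and 0.00043).

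Phosphoglycerate mutase comes as a ubiquitous form, Pgam1, and a muscle form, Pgam2, and the 2 forms differed. Pgam1 measured 1359, 1287 and 1305 CPM in control, 692, 714 and 692 in rapamycin, 1468, 1448 and 1489 with the Crebl2 siRNA and 717, 774 and 725 in the combined group. Rapamycin lowered it about as much as Tpi1 (1.88-fold, adjusted p = 2.2e-10, and 1.99-fold, adjusted p = 6.3e-11) and the Crebl2 siRNA raised it in ethanol (log2 0.16, SE 0.04, adjusted p = 0.0076), a call lost without a count filter (0.13, adjusted p = 0.071). In rapamycin its change was 0.08 (adjusted p = 0.17), called by DESeq2 alone (0.11, adjusted p = 0.036). Pgam2 measured 4.18, 4.23 and 3.68 CPM in control, 2.94, 2.39 and 3.07 in rapamycin, 2.96, 2.88 and 3.02 with the Crebl2 siRNA and 2.58, 2.32 and 2.34 in the combined group. The control libraries were the highest, and the other 3 groups lay close together. Pgam2 fell 1.44-fold with rapamycin (log2 −0.53, SE 0.12, adjusted p = 0.0023) and 1.37-fold under the Crebl2 siRNA (log2 −0.45, SE 0.12, adjusted p = 0.0078), each against the same control libraries. Pgam2 was not called with the siRNA in rapamycin (log2 −0.21, adjusted p = 0.23) or with rapamycin under the Crebl2 siRNA (−0.29, adjusted p = 0.076). Per countable kilobase the median ratio of Pgam1 to Pgam2 was 154 in control and 111 in rapamycin. It was 235 with the Crebl2 siRNA and 147 in the combined group. In ethanol the siRNA widened the ratio without overlap (233 to 238 against 144 to 168). In rapamycin the ranges overlapped (132 to 158 against 107 to 141), and the ratio was not tested.

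Enolase 1 (Eno1) measured 202, 181 and 199 CPM in control, 132, 155 and 140.0 in rapamycin, 260.2, 219.5 and 261 with the Crebl2 siRNA and 157, 179.9 and 169.8 in the combined group. It fell by 0.44 and 0.55 on the log2 scale with rapamycin (each SE 0.08, adjusted p = 0.00022 and 2.3e-05) and rose by 0.35 with the Crebl2 siRNA in ethanol (SE 0.08, adjusted p = 0.0019). Its rise of 0.24 in rapamycin (adjusted p = 0.023) was lost without rapamycin replicate 1 (adjusted p = 0.054) or combined replicate 2 (adjusted p = 0.062).

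**Figure D2:**
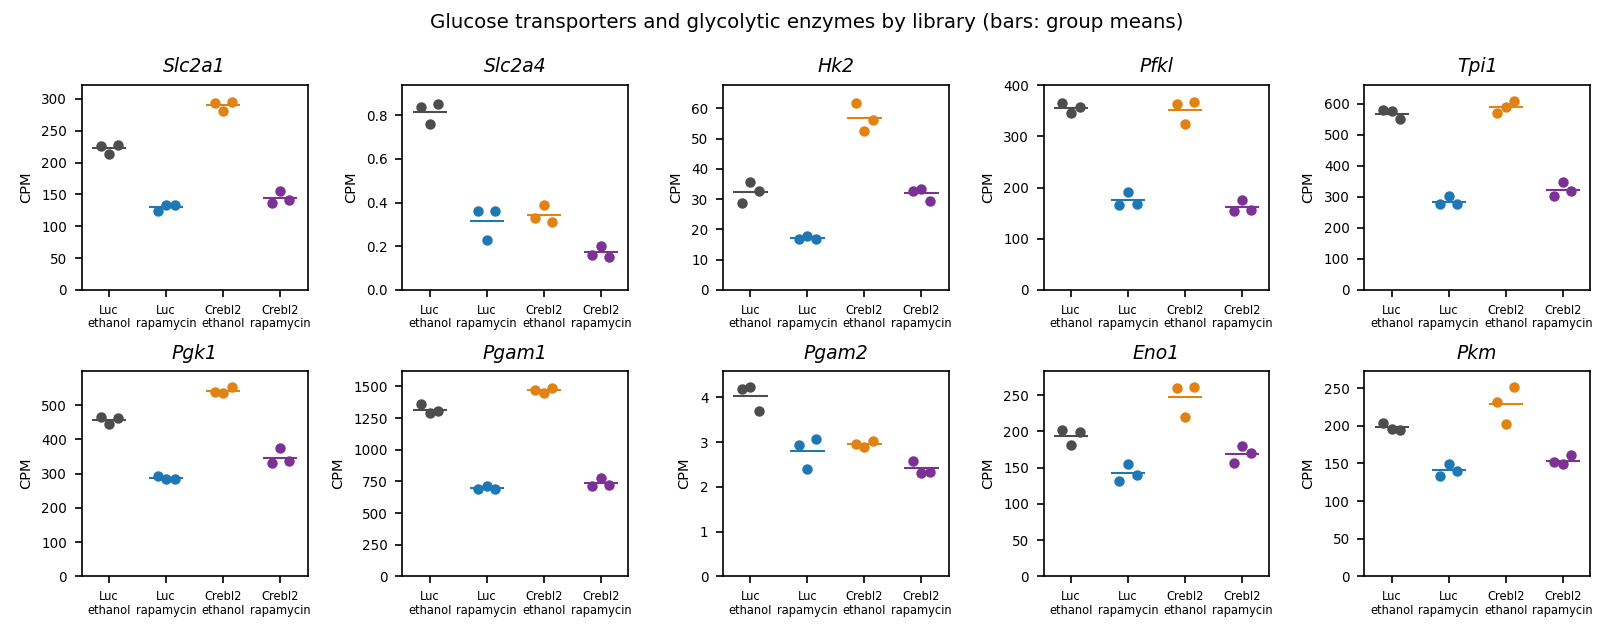
CPM (y axes, from 0) of 10 transporter and glycolysis genes in the 12 libraries, 1 point each, with bars at the means of the 4 groups on the x axis. For Slc2a1, Hk2, Pfkl, Tpi1, Pgk1 and Pgam1 both rapamycin groups sit below the ethanol group of the same siRNA, and for Slc2a4 and Pgam2 the control libraries stand above the other 3 groups.

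Pyruvate kinase, encoded by Pkm, ends glycolysis and is made as M1 or M2 from a pair of mutually exclusive exons. M1 is the form of adult muscle and brain and M2 that of most proliferating cells. Because the counts keep reads that overlap a single listed transcript, the deposited table counts the M1 exon by itself. All 167 countable bases of the M1 transcript are its own exon (chr9:59675029-59675195, plus strand, GRCm38, wholly coding). In the M2 transcript 558 bases are countable, of which 167 are the M2 exon (chr9:59675568-59675734, wholly coding). The others are 205 bases at its 5′ end and 186 at its 3′ end. Reads over these ends count for the M2 transcript whichever exon the RNA held, so its count is not specific to M2. The comparison of the M1 exon with the M2 transcript was made after the values had been seen. The exons are shown because they are what tells the isoforms apart. They are identical at 103 of 167 bases (61.7%), and capitals mark the 64 that differ.
Pkm M1 exon: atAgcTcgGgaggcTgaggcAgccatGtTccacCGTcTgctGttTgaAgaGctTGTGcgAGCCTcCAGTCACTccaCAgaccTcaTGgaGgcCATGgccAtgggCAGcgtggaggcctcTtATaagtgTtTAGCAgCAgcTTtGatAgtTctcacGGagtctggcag
Pkm M2 exon: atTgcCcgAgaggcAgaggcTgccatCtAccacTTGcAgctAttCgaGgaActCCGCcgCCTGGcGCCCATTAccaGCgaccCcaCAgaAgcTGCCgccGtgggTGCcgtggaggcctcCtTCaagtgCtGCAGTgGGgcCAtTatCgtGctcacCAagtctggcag

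The M1 exon rose with the Crebl2 siRNA while the M2 transcript did not change detectably. M1 reads stood at 38.4, 33.4 and 35.8 CPM in control, 23.1, 23.0 and 22.7 in rapamycin, 56.5, 49.8 and 58.6 with the Crebl2 siRNA and 37.6, 40.2 and 38.0 in the combined group. The Crebl2 siRNA libraries all lay above control and the combined libraries all above rapamycin. In a fit over single transcripts the rise was 1.53-fold in ethanol (log2 0.62, SE 0.07, adjusted p = 3.2e-06, with 34.6% of 14494 transcripts called) and 1.68-fold in rapamycin (log2 0.75, SE 0.07, adjusted p = 6.9e-07, with 31.4% called). Reads of the M2 transcript were at 168, 163 and 161 CPM in control, 174, 153 and 189 with the Crebl2 siRNA, 109, 124 and 115 in rapamycin and 115, 112 and 124 in the combined group. These overlapped between siRNAs in both media, with log2 fold changes of 0.07 (SE 0.07, adjusted p = 0.49) and 0.01 (SE 0.07, adjusted p = 0.92).

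As a share of all Pkm reads counted, M1 made up 18.6, 17.0 and 18.2% in control and 17.5, 15.6 and 16.5% in rapamycin, against 24.5, 24.6 and 23.7% with the Crebl2 siRNA and 24.6, 26.4 and 23.4% in the combined group. The share is not a share of molecules, since the countable stretches differ in length and those of the M2 transcript lie partly outside the M2 exon. It still compares between groups: every library with the Crebl2 siRNA lay above every library with the Luc siRNA. Tested against the rest of its gene (edgeR's diffSpliceDGE over 2590 transcripts), the M1 exon was higher with the Crebl2 siRNA by 0.44 on the log2 scale in ethanol (adjusted p = 0.0014), a call made for 1.16% of these transcripts, and by 0.59 in rapamycin (adjusted p = 5.9e-05), a call made for 0.888%. In the same test the M2 transcript was not called with the Crebl2 siRNA in ethanol or rapamycin (log2 −0.11 and −0.15, adjusted p = 0.94 and 0.68). Rapamycin lowered the M1 exon by 0.64 and 0.51 on the log2 scale with the Luc and the Crebl2 siRNA. The countable bases of the M2 transcript fell by 0.50 and 0.55, and all 4 falls were called (38.8% and 42.8% of transcripts were). It shifted the M1 exon against its gene by −0.12 and 0.03, neither called (adjusted p = 1.0, with 0.849% and 1.85% of transcripts called). At the level of the whole gene, Pkm was at 204, 196 and 194 CPM in control, 133, 149 and 140.2 in rapamycin, 232, 203 and 251 with the Crebl2 siRNA and 151, 149 and 161 in the combined group. Its rise of 0.21 with the siRNA in ethanol (adjusted p = 0.021) was lost without control replicate 2 or 3 or Crebl2 siRNA replicate 1 or 3 (adjusted p = 0.059 to 0.12) or when the compared groups alone were fitted (0.07), and was 0.09 (adjusted p = 0.34) when the most-counted transcript alone was used, which is M2. In rapamycin the siRNA changed the whole gene by 0.13 (adjusted p = 0.17), or 0.20 without rapamycin replicate 2 (adjusted p = 0.04) and 0.16 without a count filter (adjusted p = 0.029). Unspliced RNA over these bases would be counted as well, and total RNA holds some. The M1 exon rose with the siRNA in both media. Of the 11 tested markers of differentiated muscle, the tissue that uses M1, 9 fell with the siRNA in ethanol. In rapamycin 8 fell and 1, Actn3, rose. Of all genes, 17.0% and 16.8% fell in these comparisons. A link between the markers and the M1 exon was not tested.

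**Figure D3:**
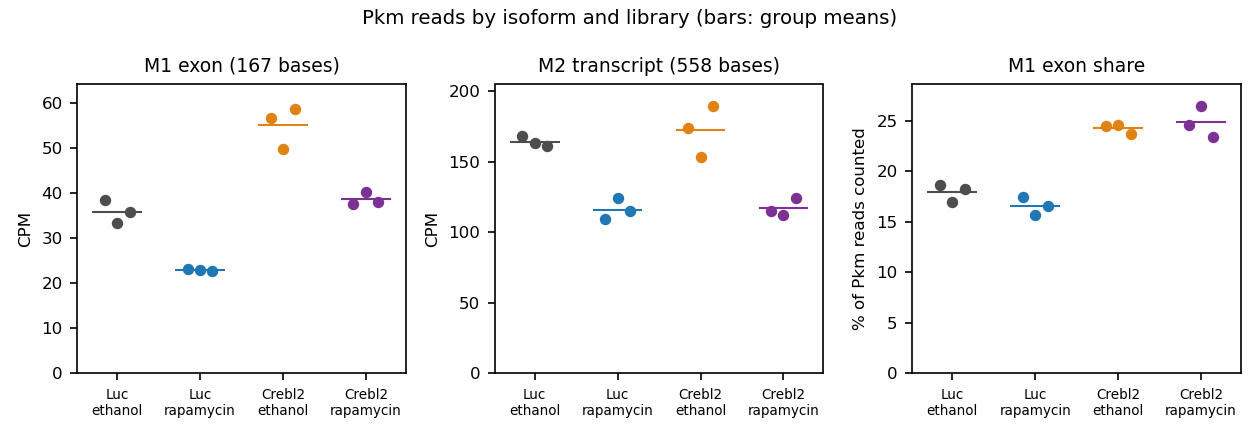
CPM of the M1 exon and of the M2 transcript of Pkm, and the M1 exon's percentage of Pkm reads counted (y axes, from 0), for the 12 libraries in 4 groups (x axes), with bars at group means. In the third panel all 6 Crebl2 siRNA libraries (23.4 to 26.4%) sit above all 6 Luc siRNA libraries (15.6 to 18.6%).

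At the fate of pyruvate, Pdk1 and Ldhb fell most clearly with the Crebl2 siRNA. Pdk1 (chr2:71873224-71903858, plus strand), which phosphorylates and inhibits pyruvate dehydrogenase, measured 129, 129 and 128 CPM in control, 92.3, 88.3 and 91.7 in rapamycin, 68.1, 77.2 and 70.4 with the Crebl2 siRNA and 46.8, 48.3 and 45.7 in the combined group. The 4 groups were fully apart, in steps downward in that order. It fell 1.79-fold and 1.93-fold with the siRNA in ethanol and rapamycin (log2 −0.84 and −0.95, each SE 0.05, adjusted p = 5.8e-09 and 1.9e-09), and 1.42-fold and 1.53-fold with rapamycin (log2 −0.50 and −0.61, each SE 0.05, adjusted p = 5.1e-07 and 6.3e-08). The interaction was −0.11 (SE 0.07, adjusted p = 0.49). Ldhb, the lactate dehydrogenase subunit of oxidative tissues, measured 46.3, 40.0 and 42.8 CPM in control, 51.6, 50.2 and 46.6 in rapamycin, 26.5, 24.4 and 27.1 with the Crebl2 siRNA and 30.6, 33.2 and 30.9 in the combined group. Every library with the Crebl2 siRNA lay below every library with the Luc siRNA, and rapamycin moved Ldhb upward, against the direction of the enzymes before it. The fall with the siRNA was 1.65-fold in ethanol (log2 −0.73, SE 0.07, adjusted p = 6.6e-07) and 1.57-fold in rapamycin (log2 −0.65, SE 0.06, adjusted p = 2e-06). The rise with rapamycin was 0.28 with the Crebl2 siRNA (SE 0.07, adjusted p = 0.0028). With the Luc siRNA it was 0.20 (SE 0.06, adjusted p = 0.018) and was lost without control replicate 2, rapamycin replicate 1 or 2, or combined replicate 3 (adjusted p = 0.095, 0.15, 0.1 and 0.054), or without a count filter (0.059).

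Slc16a1 (chr3:104638668-104658462, plus strand, GRCm38) encodes MCT1, which carries lactate and pyruvate with a proton across the cell membrane, and it was the member whose response to rapamycin depended on the siRNA. It measured 251, 267 and 252 CPM in control and 221, 224 and 230.1 in rapamycin. Under the Crebl2 siRNA it measured 198, 229.9 and 213 CPM in ethanol and 125, 123 and 124 in rapamycin. The combined libraries sat together far below the other 9. Rapamycin lowered Slc16a1 1.14-fold with the Luc siRNA (log2 −0.19, SE 0.05, adjusted p = 0.0071) and 1.72-fold under the Crebl2 siRNA (log2 −0.79, SE 0.05, adjusted p = 6e-09). Read the other way, the siRNA lowered it 1.20-fold in ethanol (log2 −0.26, SE 0.05, adjusted p = 0.0007) and 1.82-fold in rapamycin (log2 −0.86, SE 0.05, adjusted p = 1e-08). The interaction was −0.60 (SE 0.07, adjusted p = 0.001), and all of the gene's 4426 exonic bases were countable. Of the 8 tested myoblast and 11 tested differentiated muscle markers, 3 and 4 were called with a positive interaction, against 0.611% of all genes. None was called with a negative one. A link between the markers and Slc16a1 was not tested. Slc16a3, the MCT4 exporter of glycolytic muscle, was at 20 to 38 counts per library and was not called, with log2 changes of −0.53 to 0.50. Without control replicate 2 the −0.53 of the siRNA in ethanol became −0.72 and was called (adjusted p = 0.027).

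Among the genes of glycogen metabolism, Pgm1, Pgm2, Gys1 and Gsk3b fell with rapamycin under both siRNAs, and Phkb, Stbd1 and Epm2a rose under both. Phosphoglucomutase links glucose 6-phosphate to glycogen, and Pgm1 and Pgm2 both carry that name. Enzyme activity was not measured, so the rise of Pgm2 below cannot be read as a rise of that step. Pgm2 measured 88.5, 85.4 and 89.8 CPM in control, 72.8, 77.9 and 72.0 in rapamycin, 113, 111 and 114 with the Crebl2 siRNA and 83.3, 90.3 and 85.4 in the combined group. The Crebl2 siRNA libraries were the highest and the rapamycin libraries the lowest, with control and combined libraries between them. Pgm2 rose 1.28-fold and 1.16-fold with the siRNA (log2 0.36 and 0.22, each SE 0.05, adjusted p = 1.9e-05 and 0.0018) and fell 1.18-fold and 1.31-fold with rapamycin (log2 −0.24 and −0.38, each SE 0.05, adjusted p = 0.00048 and 4.5e-06). Pgm1 fell with rapamycin by 0.54 and 0.44 (each SE 0.11, adjusted p = 0.00073 and 0.003), from a control mean of 23.4 ± 1.88 CPM (SD, n = 3) with 32.5% of its bases countable. Unlike Pgm2, Pgm1 was not called with the siRNA in ethanol or rapamycin (log2 −0.04 and 0.06, adjusted p = 0.83 and 0.71). Gys1, the muscle glycogen synthase, fell by 0.33 with the Luc siRNA (SE 0.06, adjusted p = 0.00059). Its fall of 0.24 with the Crebl2 siRNA (adjusted p = 0.0066) shrank to 0.14 without combined replicate 1 and was no longer called (adjusted p = 0.1). Ugp2, which makes the UDP-glucose that the synthase uses, was not called in any comparison (log2 −0.12 to 0). Gsk3b, a kinase that inhibits glycogen synthase, fell by 0.19 and 0.21 with rapamycin (each SE 0.05, adjusted p = 0.0049 and 0.0016).

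Pygb, the brain-type phosphorylase, was the measured phosphorylase of these cells, since Pygm had 0 to 15 counts over 10.1% of its bases and Pygl none. It measured 233, 219 and 244 CPM in control, 253, 253 and 255 in rapamycin, 202, 187 and 196 with the Crebl2 siRNA and 203, 210 and 205 in the combined group. Libraries with the Crebl2 siRNA were below those with the Luc siRNA throughout. The falls with the siRNA were 1.19-fold and 1.23-fold (log2 −0.25 and −0.30, each SE 0.05, adjusted p = 0.00047 and 0.00012). The rise of 0.13 with rapamycin (adjusted p = 0.035) was lost without control replicate 1 or 2, any single rapamycin replicate or any single combined replicate (adjusted p = 0.071 to 0.19), without a count filter (0.33) or with the compared groups alone (0.07).

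Phosphorylase kinase activates phosphorylase, and its β subunit, Phkb, measured 206, 218 and 228 CPM in control, 289, 260.3 and 285 in rapamycin, 188, 196 and 181 with the Crebl2 siRNA and 246, 233 and 237 in the combined group. Rapamycin libraries were the highest and Crebl2 siRNA libraries the lowest. Phkb rose 1.28-fold and 1.27-fold with rapamycin (log2 0.35 and 0.34, each SE 0.05, adjusted p = 5.2e-05 and 6.3e-05) and fell by 0.21 with the siRNA in ethanol (SE 0.05, adjusted p = 0.0055). The fall of 0.22 in rapamycin (adjusted p = 0.0042) became 0.16 or 0.17 without rapamycin replicate 1 or 3 and was then not called (adjusted p = 0.059 and 0.053). Phka2 and Phkg1, its α and γ subunits, were not called, with standard errors of 0.19 to 0.23. Without rapamycin replicate 1 the change of Phka2 with rapamycin was −0.53 and was called (adjusted p = 0.048).

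Protein phosphatase 1 is brought to glycogen by scaffolds of the Ppp1r3 family. Ppp1r3c measured 0.91, 1.19 and 0.962 CPM in control, 1.64, 1.54 and 1.41 in rapamycin, 1.63, 1.71 and 1.46 with the Crebl2 siRNA and 1.7, 2.32 and 1.98 in the combined group, or 35 to 80 counts. Control was the lowest group. Ppp1r3c rose 1.56-fold with the siRNA in ethanol (log2 0.64, SE 0.17, adjusted p = 0.0071). It rose 1.49-fold with rapamycin in control cells (log2 0.58, SE 0.17, adjusted p = 0.013), a call lost without control replicate 1 (adjusted p = 0.056) or rapamycin replicate 1 (adjusted p = 0.062), or without a count filter (adjusted p = 0.055). The changes against the singly treated groups were 0.38 and 0.32 and were not called (adjusted p = 0.077 and 0.11), though without combined replicate 1 they became 0.53 and 0.46 and were (adjusted p = 0.033 and 0.045). Ppp1r3e, at 8 to 23 counts, was not called.

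Stbd1, which tethers glycogen to membranes and to the autophagy machinery, measured 134, 130 and 133 CPM in control, 148, 158 and 144 in rapamycin, 140, 143 and 143 with the Crebl2 siRNA and 184, 182 and 185 in the combined group. The combined libraries stood above all others. The rise with rapamycin was 1.30-fold with the Crebl2 siRNA (log2 0.37, SE 0.04, adjusted p = 2.3e-06). With the Luc siRNA it was 1.14-fold (log2 0.18, SE 0.04, adjusted p = 0.0022) and was lost without rapamycin replicate 2 (0.11, adjusted p = 0.057). The siRNA raised it by 0.29 in rapamycin (SE 0.04, adjusted p = 7e-05) and by 0.10 in ethanol, which was not called (adjusted p = 0.073). The interaction was 0.19 (adjusted p = 0.14), and became 0.29 without rapamycin replicate 2 (adjusted p = 0.029).

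Epm2a encodes laforin, a phosphatase that keeps glycogen soluble. Its libraries were at 3.39, 3.26 and 3.27 CPM in control, 4.8, 5.29 and 4.98 in rapamycin, 2.7, 3.09 and 2.9 with the Crebl2 siRNA and 6.83, 5.69 and 5.47 in the combined group. Every rapamycin library lay above every ethanol library. The rises were 1.52-fold with the Luc siRNA (log2 0.60, SE 0.11, adjusted p = 0.0004) and 2.07-fold under the Crebl2 siRNA (log2 1.05, SE 0.11, adjusted p = 1.4e-06), and their difference of 0.45 was not called (SE 0.16, adjusted p = 0.2). The siRNA changed Epm2a by −0.19 in ethanol and 0.26 in rapamycin, neither called (adjusted p = 0.21 and 0.079). Without combined replicate 3 the second was 0.35 and was called (adjusted p = 0.037).

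**Figure D4:**
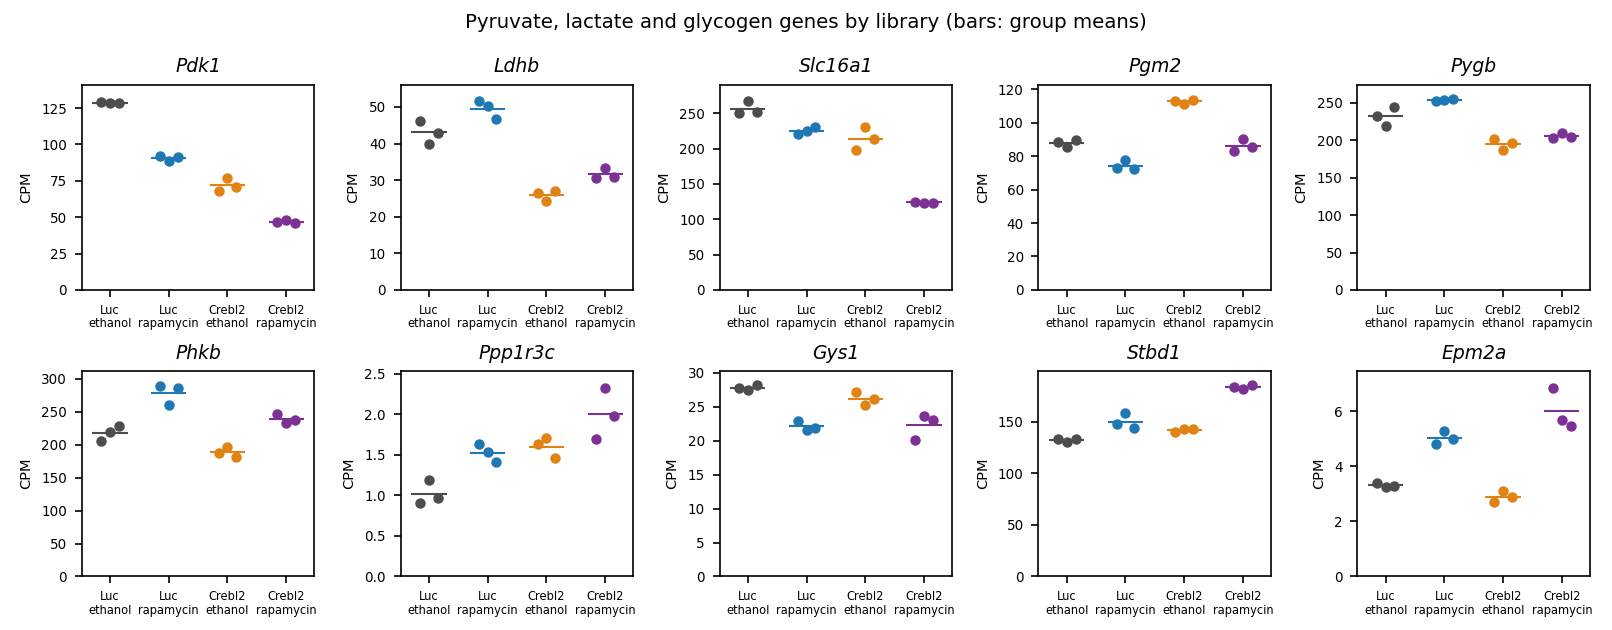
CPM (y axes, from 0) of 10 pyruvate, lactate and glycogen genes in the 12 libraries, with bars at the means of the 4 groups on the x axis. Pdk1 steps down over the 4 groups, Slc16a1 is at 123 to 125 CPM in the combined group and at 198 or more elsewhere, and Stbd1 and Epm2a are highest in the combined group.

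Levels of different genes can be compared per countable kilobase where at least 50% of the bases are countable. In control cells Pgam1 (742 CPM per kilobase), Tpi1 (508), Pgk1 (251) and Gpi1 (207) led, followed by Pfkl at 95.4. The places of Pgk1 and Pgam1 are less certain, since 53.9% and 36.2% of their 50-base words also occurred in another gene. Stbd1 (68.4), Slc2a1 (68.2), Pygb (59.4) and Slc16a1 (58.0) formed a middle set, in which Stbd1 and Slc2a1 cannot be ordered. Hk2 was at 11.1 on that scale, and Pgam2 (4.8), Epm2a (1.01), Slc2a3 (0.382), Ppp1r3c (0.374) and Phkg1 (0.258) were at the bottom. The glycogen tether Stbd1 thus had a level close to that of the main glucose transporter.

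The promoters of these genes were read for short motifs that bear on factors of glucose metabolism, in windows from 250 bases before to 50 after each start in RefSeq (GRCm38.p6), which held 44 of the 48 genes with 58 promoters. The 5 letters ACGTG, the core of the sites of hypoxia-inducible factors and of many bHLH factors, were present on either strand in 28 of the 58 (48.3%), against 19.7% of all 32544 promoters. No test was made, and promoters of 1 gene can overlap. The longer E-box CACGTG, which holds ACGTG on both strands, was in 13.8% against 7.17%. TGACG, the core of the cyclic AMP response element, was in 24.1% against 20.9%, its palindrome TGACGTCA, which holds TGACG on both strands, in 1.72% against 1.8%, and CANNTG, which includes CACGTG, in 67.2% against 72.3%. Among the genes that fell in both rapamycin comparisons ACGTG was in 9 of the 15 with a promoter. It was in 1 of the 4 that rose in both and in 6 of the 11 other tested genes. The 5 windows below, of genes that fell with rapamycin in both backgrounds, are printed 5′ to 3′ on the gene's strand, with ACGTG or its reverse complement in capitals. A match is a description of letters and no match says nothing about a factor.
Slc2a1 promoter, chr4:119108697-119108725, plus strand: gtcccgccccggACGTGctccccaggccc
Hk2 promoter, chr6:82774490-82774518, minus strand: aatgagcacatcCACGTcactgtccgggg
Pgk1 promoter, chrX:106186938-106186966, plus strand: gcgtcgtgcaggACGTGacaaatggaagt
Pgam1 promoter, chr19:41911745-41911773, plus strand: cgctccttgcttACGTGcgctccgtgact
Slc16a1 promoter, chr3:104638453-104638481, plus strand: cggcgccgggtcACGTGgcgggaaggggg
The matches began 36, 52, 150, 114 and 199 bases before the start, in that order. In Slc16a1 the base before the capitals makes a CACGTG, the only one among the genes that fell in both rapamycin comparisons. Pfkl and Tpi1, which fell 2.03-fold and 2.0-fold with rapamycin in Luc siRNA cells, had no ACGTG in their windows.

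A further 67 genes of glucose uptake, the pyruvate node, glycogen and AMP-activated kinase, chosen by function, gave the surroundings, and 46 could be tested. This list too was chosen with earlier results of these data known. With rapamycin 10 rose (21.7%) and 17 fell (37.0%) in the Luc siRNA background, where 19.5% of all genes rose and 21.6% fell. In the Crebl2 siRNA background 8 rose (17.4%) and 20 fell (43.5%), where 19.7% of all genes rose and 25.6% fell. The rises were thus near the share of all genes. The medians were −0.08 and −0.22. The Crebl2 siRNA gave 11 rises and 11 falls in ethanol, where 21.4% of all genes rose and 17.0% fell, and 5 rises and 15 falls in rapamycin, where 16.3% rose and 16.8% fell. With DESeq2 the counts in rapamycin were 7 rises and 8 falls. None of the 46 was called in the interaction by edgeR, where 9 had an unadjusted p under 0.05, and DESeq2 called 1. The largest falls with the Crebl2 siRNA were those of genes of muscle: Pgm5, a phosphoglucomutase relative at muscle adhesion sites without known enzyme activity, by 3.41 and 2.44 on the log2 scale (adjusted p = 3.2e-08 and 1.2e-06), and Prkag3, the AMP-activated kinase subunit of glycolytic muscle, by 2.19 and 1.62 (adjusted p = 4.4e-05 and 0.0048). They moved with the differentiated muscle markers. With rapamycin the largest changes were in sugar carriers and galactose use: Slc2a6 fell by 1.78 (adjusted p = 0.0032) and Galt rose by 1.29 (adjusted p = 0.048) with the Luc siRNA, both under 1 CPM. In Crebl2 siRNA cells Slc2a12 fell by 1.23 (adjusted p = 0.0016) and the inositol carrier Slc2a13 rose by 1.00 (adjusted p = 1.8e-05).

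Pdk2 and Pdk4, relatives of Pdk1, were looked at after the values of Pdk1 had been seen, and they went the other way with rapamycin. Values of Pdk3, also on the list, are not given here. Pdk2 rose by 0.63 with the Luc siRNA and 0.76 with the Crebl2 siRNA (adjusted p = 1.3e-06 and 1.5e-07), from a mean of 47.2 CPM in control. Pdk4, the isozyme of fasted muscle, rose by 0.68 and 0.49 (adjusted p = 2e-07 and 5.2e-06), from 133 CPM. The siRNA alone lowered Pdk2 by 0.38 on the log2 scale (adjusted p = 0.00032), while Pdk4 was at a mean of 133 CPM in both groups (log2 0.01, adjusted p = 0.93).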

How the data were processed

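The files deposited by the authors give raw read counts per Ensembl transcript (58611 listed, 12 libraries). The submitters' processing notes list Trim Galore, TopHat and HTSeq and both mm9 and GRCm38; strand setting, annotation release and the rule for shared reads are not given in the sources used here. Identifiers were matched to GENCODE M21 (99.41%; the rest, with 0.038% of reads, were dropped) and counts were summed per gene. edgeR's filterByExpr (by group, minimum count 10) chose the tested genes. TMM scaling, 1 mean per group, all 12 libraries and the quasi-likelihood test of edgeR 4.0.16 (R 4.3.3) gave 5 contrasts, adjusted over 13247 genes, with SE as the log2 fold change over the square root of F. The fit was tested on simulated data. Alternatives included RLE scaling, DESeq2 1.42.0, other count filters, a replicate block and leaving out each library. Values in every library are given for members called in the interaction and the 4 largest called rises and falls per pairwise contrast with at least 10% countable bases; other pathway genes named are the 2 with the largest called change per contrast, and Pkm, its isoforms, Pdk2 and Pdk4 were added after their values were seen. Members and lists were chosen with earlier results of these data known. Aldoa has 2 gene identifiers, of which ENSMUSG00000030695 was used.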

Additional observations from a re-analysis of the deposited data

Results flagged for a closer look

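Slc16a1 was marked because its change with rapamycin differed between the siRNAs by the interaction test itself: −0.60 on the log2 scale (SE 0.07, adjusted p = 0.001), from −0.19 with the Luc siRNA to −0.79 with the Crebl2 siRNA. Over 18 other settings the difference stayed between −0.65 and −0.53, with adjusted p from 4.3e-11 to 0.0079, and was called in all 18.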

How the results depend on the processing

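No result changed sign while called. In named alternatives 496 of 514 calls of single genes were kept, and 847 of 888 when a library was left out. With DESeq2, 8 of the other pathway genes fell with the Crebl2 siRNA in rapamycin (15 with edgeR), 1 fell in the interaction (0 with edgeR) and 1 of the 33 genes rose in the interaction (0 with edgeR). That last count ranged from 0 to 1 when a library was left out. The count of the 33 genes that rose with rapamycin and the Luc siRNA was 3 without a count filter, against 6, and ranged from 3 to 6 when a library was left out, with 3 without rapamycin replicate 1 or 2. The causes were not tested. Libraries with the same replicate number did not deviate together (2 of 18 pairs with a correlation over 0.1, range −0.292 to 0.124), and 1 of 12 libraries correlated best with its own number. With a replicate block, 8 genes rose and 7 fell with the Crebl2 siRNA in ethanol, and 6 rose and 5 fell in rapamycin. The block ended the calls of Pfkp (adjusted p = 0.058) and Slc2a1 (0.065) in these comparisons and of Hk1 (0.067) and Pygb (0.052) with rapamycin and the Luc siRNA. The M1 exon of Pkm was called against its gene in all 14 alternatives, added after seeing the data, at log2 0.40 to 0.46 (ethanol) and 0.54 to 0.63 (rapamycin). RLE and DESeq2 scaling moved the median of all genes by under 0.1. Depth limits genes under about 1 CPM, such as Slc2a4 and Pfkm.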
